A study of Mus musculus with 10 samples.

Results

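The 39 genes described here mark the cells of blood vessels or act on them. They were chosen by name, with earlier results of these data known. Of them, 28 were taken as genes of endothelial cells, 8 as genes of mural cells and 3 as angiogenic factors. Each had 1 probe set that carried its symbol alone, so all 39 were measured among the 19938 genes of the table. RNA of muscle from mice of strain C56BL6N, as the labels spell it (the methods name C57Bl6), labelled as 8 weeks old, was read on 10 Affymetrix gene arrays. In TA, the tibialis anterior at the front of the leg, 2 arrays held fibers with an shRNA against linc-MYH, a long non-coding RNA of the fast myosin cluster (shlinc-MYH), and 2 held fibers with the control vector. Both vectors were given as 10 µg of plasmid by electroporation, and fibers with GFP were dissected 2 weeks later, so both TA groups carry the plasmid, the electric pulses and the dissection. In the gastrocnemius, a calf muscle, 3 arrays came from cSix1 KO mice and 3 from wild type mice. The cSix1 KO mice carry a floxed allele and HSA-CRE, in which the human skeletal actin promoter, a promoter of skeletal fibers and not of vessels, drives Cre. By the methods the control plasmid (shLacZ) went into the opposite leg of the mouse and muscles of a condition were from different mice, but no source ties an array to a mouse. For the gastrocnemius arrays separate animals are not stated. The spread between arrays may thus be partly technical.

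Capillaries run along every muscle fiber. Endothelial cells line them, hold together through VE-cadherin (Cdh5), PECAM-1 (Pecam1) and claudin 5 (Cldn5), and read vascular endothelial growth factor (VEGF) and angiopoietins through the kinases Flt1, Kdr, Tek and Tie1. Mural cells sit on their outer side, pericytes on capillaries and smooth muscle cells on larger vessels. Muscle fibers release VEGF, and angiopoietin 1 (Angpt1), a ligand of Tek, is known as a product of mural and other cells around the vessel.

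The values are log2 signals after RMA, the background correction and normalization of Affymetrix data, where 1 unit is a factor of 2. The TA arrays had medians over all probe sets of 5.09 to 5.14 and the gastrocnemius arrays of 6.60 to 6.67, so levels are given within a tissue only. The 10 fast fiber genes, read as a check of the tissue, lay at the 99.8th percentile or above in TA controls and at the 99.0th or above in gastrocnemius controls. The vessel genes ranged from somewhat below the array median to the upper part of the arrays. The dimmest in TA controls were Cnn1 at a mean of 4.94 and Apln at 4.95. In TA controls the endothelial genes lay between the 41.2nd and the 94.5th percentile of all genes, and in gastrocnemius controls between the 52.0th and the 94.3rd. A bulk array cannot tell fewer vessel cells from less RNA per vessel cell.

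In TA nearly all vessel genes had lower signals with shlinc-MYH than with the control vector, but none of the 39 passed the test. All 28 endothelial genes had a log2 fold change below 0, with a median of -0.46 and a range from Adgrf5 at -0.96 to Plvap at -0.07, against a median of -0.03 over all genes. All 8 mural genes were below 0 as well, with a median of -0.41. Of the 39 genes, 0 were called by limma at an adjusted p under 0.05, with a smallest adjusted p of 0.446 for Pecam1, and over all genes tested 3 were called, or 0.0150%. At an unadjusted p under 0.05, 18 of the 39 were lower and 0 higher, where 4.37% of all genes were lower. Of these, 15 were endothelial, a number that was 3 without control replicate 1, 6 without control replicate 2, 4 without shlinc-MYH replicate 1 and 18 without shlinc-MYH replicate 2. The methods' t-test set 2 of the 39 lower before adjustment, a share near the 3.93% of all genes, and 0 after it. With the replicate number as a block, 0 of the 39 and 5 of all genes were called.

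Pecam1 and Cdh5 stand for the junctions between endothelial cells. Pecam1, an adhesion molecule of these junctions, had signals of 6.46 and 7.02 on the shlinc-MYH arrays, against 7.66 and 7.49 on the control arrays. Both shlinc-MYH arrays lay below both controls, and replicate 1 was the lowest. The log2 fold change was -0.83 (SE 0.20, 95% interval -1.32 to -0.35). Cdh5, the cadherin of endothelial contacts, read 7.57 and 8.36 with shlinc-MYH and 8.49 and 8.75 with the control vector, a change of -0.66 (SE 0.26). The groups did not overlap, although shlinc-MYH replicate 2 was nearer to control replicate 1 than the controls were to each other. Of the 5 junction and adhesion genes, 3 had both shlinc-MYH arrays below both controls, as 23.0% of all genes did, and the other two were Cldn5 at -0.15 and Icam2 at -0.21. Esam, an adhesion molecule of the same contacts, was at -0.53.

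The receptors of VEGF and of the angiopoietins had a median change of -0.63 over 4 genes. Flt1, a receptor that binds VEGF with high affinity, had signals of 6.75 and 7.35 on the shlinc-MYH arrays and 8.00 and 7.73 on the control arrays. Its change was -0.82 (SE 0.22, 95% interval -1.34 to -0.29). Kdr, the main signalling receptor of VEGF, read 5.42 and 6.33 with shlinc-MYH, against 6.61 and 6.70 with the control vector. Replicate 1 was more than 1 log2 unit and replicate 2 was 0.32 below the control mean, and the change of Kdr was -0.78 (SE 0.28). Tek, the angiopoietin receptor, read 6.01 and 6.67 with shlinc-MYH and 6.92 and 6.72 with the control vector, a change of -0.48 (SE 0.22). Here replicate 2 was next to control replicate 2, so the change of Tek rests on replicate 1. Tie1, its partner receptor, was at -0.37 and its groups overlapped.

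Among 8 other receptors was Adgrf5, the endothelial gene with the most negative change. Adgrf5, an adhesion G protein-coupled receptor, had signals of 6.83 and 7.76 on the shlinc-MYH arrays, against 8.44 and 8.07 on the control arrays, a change of -0.96 (SE 0.30). Adgrl4, a related receptor, read 7.38 and 7.80 with shlinc-MYH and 8.24 and 8.20 with the control vector. It was among the steadier genes, as its controls differed by 0.04 and both shlinc-MYH arrays were lower by several times that, with a change of -0.64 (SE 0.16). Ramp2, which carries the adrenomedullin receptor to the surface, read 6.07 and 6.31 with shlinc-MYH and 6.57 and 6.74 with the control vector, a change of -0.47 (SE 0.14). Of these 8 genes, 7 were lower without overlap, against 23.0% of all genes, the exception being Aplnr, the apelin receptor, whose controls alone were 0.72 apart. Ptprb, the phosphatase of VE-cadherin and Tek, was at -0.85, S1pr1, a receptor of sphingosine-1-phosphate, at -0.65, Eng, a co-receptor of the TGF-beta family, at -0.47 and Robo4 at -0.29.

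The remaining endothelial genes covered a wide range. Emcn, a sialoglycoprotein of the capillary surface, was at -0.74 and Gpihbp1, which holds lipoprotein lipase on capillaries, at -0.47, while Plvap, the protein of the diaphragms of fenestrae, was at -0.07. The transcription factors Erg, Sox17 and Sox18 were at -0.38, -0.13 and -0.39. Each had both shlinc-MYH arrays below both controls, as did 23.0% of all genes. The secreted products Vwf, Egfl7 and Apln lay between -0.46 and -0.29. Nos3, the nitric oxide synthase of endothelium, was at -0.27 and Rasip1, a GTPase effector, at -0.10.

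In all, 22 of the 28 endothelial genes had both shlinc-MYH arrays below both controls, and 27 of the 39 did, where 23.0% of all genes did. shlinc-MYH replicate 1 was the lowest of the 4 arrays for 25 of the 28 endothelial genes, and for 28.9% of all genes. Against the control mean, the median endothelial gene was at -0.66 on shlinc-MYH replicate 1 and at -0.26 on replicate 2, with the controls at 0.02 and -0.02. The shlinc-MYH arrays differed by a median of 0.53 over these genes and by over 0.5 for 16 of them, whereas the control arrays differed by a median of 0.15 and by over 0.5 for 1 gene, Aplnr. Over all genes the 2 shlinc-MYH arrays differed by a median of 0.13 and the controls by 0.15. Without shlinc-MYH replicate 1 the endothelial median was -0.26 with 26 of 28 genes below 0, and without replicate 2 it was -0.66.

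**Figure D1:**
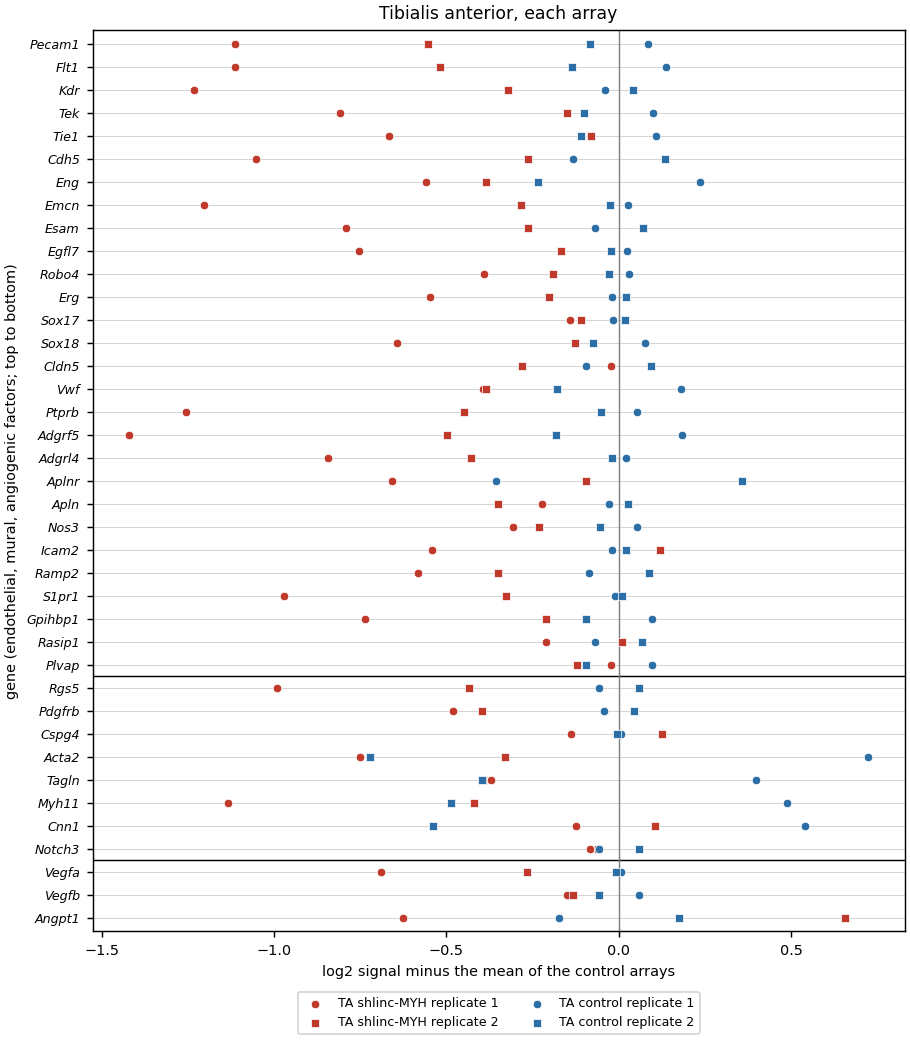
Log2 signal of the 39 genes on each TA array minus the mean of the 2 control arrays, with shlinc-MYH in red, the control vector in blue, circles for replicate 1 and squares for replicate 2. The red circles lie at the left for most endothelial genes, with a median of -0.66, the red squares between them and the controls at a median of -0.26, and the blue circles stand to the right for Acta2, Tagln, Myh11 and Cnn1.

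The 14 brighter endothelial genes, with control signals of 6.49 to 8.62, had a median change of -0.65, and the 14 dimmer ones, at 4.95 to 6.19, a median of -0.29. RMA compresses the changes of dim genes, and the part of this in the difference was not tested.

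Promoters are shown for the 4 endothelial members with the largest TA statistics among those with 1 RefSeq entry, and for Rgs5. In endothelial cells Erg and other factors of the ETS family bind such motifs. Both strands were searched for CCGGAA or CAGGAA, the ETS core used here, in the 250 bases before and the 50 after each start in the RefSeq annotation of GRCm38.p6. The motif was present in 14 of the 19 promoters found for 14 endothelial genes (73.7%), in 2 of 5 mural promoters and in 1 of 3 promoters of the angiogenic factors, where 41.4% of all 32851 promoters held it. Genes with several entries count more than once, and a match of 6 letters is no binding site. The genes were chosen as endothelial, and a link of the motif to their change in TA was not tested. In the sequences below, 5′ to 3′ along the gene, the capitals mark the match, as TTCCGG or TTCCTG where it lies on the other strand. Emcn lies at chr3:137340828-137341127 (+ strand), Flt1 at chr5:147725962-147726261 (- strand), Kdr at chr5:75978406-75978705 (- strand), Adgrl4 at chr3:151437632-151437931 (+ strand) and, as a mural gene, Rgs5 at chr1:169655251-169655550 (+ strand).
Emcn: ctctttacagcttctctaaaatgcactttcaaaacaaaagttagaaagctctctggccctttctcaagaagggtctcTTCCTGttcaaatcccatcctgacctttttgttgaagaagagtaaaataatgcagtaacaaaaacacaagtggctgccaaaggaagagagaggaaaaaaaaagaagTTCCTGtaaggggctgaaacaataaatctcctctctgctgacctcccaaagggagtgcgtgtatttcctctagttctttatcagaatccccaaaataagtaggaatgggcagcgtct
Flt1: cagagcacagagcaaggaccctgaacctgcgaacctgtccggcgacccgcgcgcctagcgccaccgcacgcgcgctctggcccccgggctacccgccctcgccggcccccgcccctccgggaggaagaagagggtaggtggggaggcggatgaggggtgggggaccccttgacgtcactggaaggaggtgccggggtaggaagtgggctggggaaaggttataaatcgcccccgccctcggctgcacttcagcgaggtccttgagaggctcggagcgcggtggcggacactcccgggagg
Kdr: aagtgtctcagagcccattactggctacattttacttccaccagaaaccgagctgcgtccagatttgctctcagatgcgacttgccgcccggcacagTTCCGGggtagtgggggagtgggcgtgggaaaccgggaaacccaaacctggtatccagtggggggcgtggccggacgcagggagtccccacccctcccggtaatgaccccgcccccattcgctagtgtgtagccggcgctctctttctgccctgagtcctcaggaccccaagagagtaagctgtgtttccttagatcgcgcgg
Adgrl4: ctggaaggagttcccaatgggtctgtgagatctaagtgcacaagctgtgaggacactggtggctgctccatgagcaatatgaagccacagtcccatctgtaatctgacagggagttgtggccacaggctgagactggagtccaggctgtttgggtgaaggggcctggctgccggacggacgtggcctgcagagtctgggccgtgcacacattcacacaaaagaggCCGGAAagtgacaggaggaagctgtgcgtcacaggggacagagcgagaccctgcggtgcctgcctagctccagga
Rgs5: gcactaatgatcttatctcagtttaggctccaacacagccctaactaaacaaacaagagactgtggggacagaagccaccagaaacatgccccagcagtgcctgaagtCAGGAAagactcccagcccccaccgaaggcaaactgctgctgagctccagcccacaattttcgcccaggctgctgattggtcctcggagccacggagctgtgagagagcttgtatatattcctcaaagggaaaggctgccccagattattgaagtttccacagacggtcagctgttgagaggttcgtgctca
Emcn holds 2 matches, Kdr, Adgrl4 and Rgs5 hold 1 each and Flt1 holds 0. The core of the hypoxia response element, ACGTG or GCGTG on either strand, was present in 7 of the 19 endothelial promoters (36.8%), in 3 of the 5 mural ones and in 2 of the 3 of Vegfa and Vegfb, against 43.8% of all promoters. The CArG box, bound by serum response factor in smooth muscle genes, was searched only in its strict form, CC, 6 letters of A or T, and GG. This form was present in 0 of the 5 mural promoters (Acta2, Cnn1, Cspg4, Notch3 and Rgs5), against 1.63% of all. With so rare a form and 5 promoters the count decides nothing, and looser forms of the box were not searched.

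The mural genes were split into pericyte and contractile genes by their known roles, after their values were seen. Of the pericyte genes, Rgs5, a regulator of G protein signalling in pericytes, read 9.07 and 9.63 on the shlinc-MYH arrays and 10.005 and 10.12 on the control arrays, a change of -0.71 (SE 0.20). Pdgfrb, the PDGF receptor that recruits pericytes, read 5.65 and 5.73 with shlinc-MYH and 6.08 and 6.17 with the control vector, a change of -0.44 (SE 0.12). Both genes were lower on each shlinc-MYH array than on each control, and for Pdgfrb the distance between groups was several times that between replicates. Cspg4, the NG2 proteoglycan, was at -0.01 with groups that overlapped, and Notch3, a receptor of mural cells, at -0.07 with groups that were apart by under 0.01.

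For the contractile genes of smooth muscle the 2 control arrays lay far apart. Acta2, smooth muscle actin, had signals of 7.02 and 7.44 on the shlinc-MYH arrays, against 8.49 and 7.05 on the control arrays. Myh11, smooth muscle myosin, read 5.85 and 6.56 with shlinc-MYH and 7.47 and 6.50 with the control vector. For both genes control replicate 1 stood high alone and control replicate 2 was within or next to the shlinc-MYH arrays. The changes were -0.54 (SE 0.44) for Acta2 and -0.78 (SE 0.36) for Myh11, each with an interval that held 0. Tagln at -0.38 and Cnn1 at -0.01, which encode transgelin and calponin, were likewise highest on control replicate 1, and their groups overlapped too. The median difference of the 2 controls over these 4 genes was 1.03, against 0.32 for the 2 shlinc-MYH arrays. Without control replicate 1 the median of all 8 mural genes was -0.07, with 5 of them below 0. Acta2 was then at 0.18 and Myh11 at -0.29.

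Of the angiogenic factors in TA, Vegfa, the ligand of Flt1 and Kdr, read 7.39 and 7.81 on the shlinc-MYH arrays and 8.09 and 8.07 on the control arrays. Both shlinc-MYH arrays were lower, with a change of -0.48 (SE 0.16) and an adjusted p of 0.521 by limma. Vegfb, a ligand of Flt1, read 7.30 and 7.32 with shlinc-MYH and 7.51 and 7.40 with the control vector, a change of -0.14 (SE 0.12). Angpt1 read 6.07 and 7.35 with shlinc-MYH and 6.52 and 6.87 with the control vector, so the shlinc-MYH arrays lay on both sides of the controls. Its change was 0.02, with a 95% interval of -0.93 to 0.96 that leaves large changes in either direction possible.

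**Figure D2:**
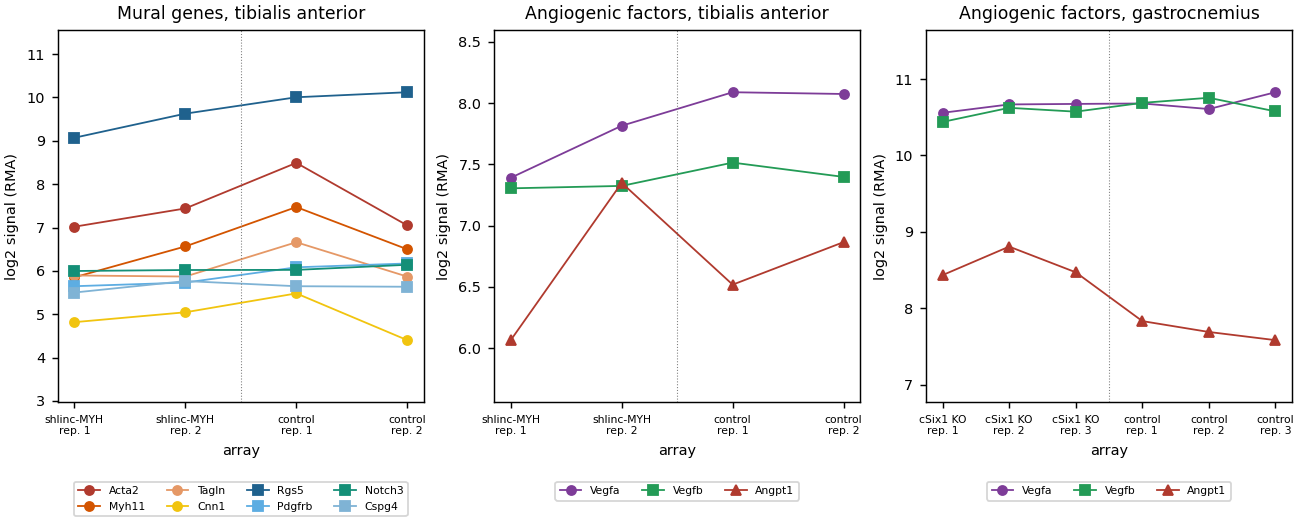
Log2 signals of the 8 mural genes in TA (left) and of Vegfa, Vegfb and Angpt1 in TA (middle) and gastrocnemius (right), 1 point per array. Lines join the points of a gene and give no order of replicates. Control replicate 1 stands high for the contractile genes (Acta2 at 8.49, against 7.05 on control replicate 2), and Angpt1 lies between 8.43 and 8.81 on the cSix1 KO arrays and between 7.58 and 7.83 on their controls.

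Further endothelial genes outside the 39 were mostly below 0 in TA as well. They were read on the same 4 arrays and listed with earlier results of these data known, so they are no separate evidence. shlinc-MYH replicate 1 was the lowest array for 23 of the 29. Of 29 further endothelial genes, 27 were below 0 with a median of -0.28, 12 were lower at an unadjusted p under 0.05, against 4.37% of all genes, and 0 were called. Lrg1, a secreted glycoprotein, was at -0.71, Cd93 at -0.69, Arhgef15, a guanine nucleotide exchange factor, at -0.59 and Aqp1, the water channel, at -0.85. Each had both shlinc-MYH arrays below both controls, as did 18 of the 29 and 23.0% of all genes. Of 17 further mural genes, 14 were below 0 with a median of -0.20. Gucy1b1 and Gucy1a1, the subunits of the nitric oxide receptor, were at -0.57 and -0.32, Mylk, the myosin light chain kinase, at -0.36 and Vtn, vitronectin, at -0.58. Of 16 arterial and venous genes, 13 were below 0 with a median of -0.10, led by Nr2f2, a venous transcription factor, at -0.39 and Efnb2, an arterial ephrin, at -0.43, with Jag1 at -0.39 and the connexin Gja5 at -0.45. The median of the arterial and venous genes was nearer to 0 than that of the 28 endothelial members, -0.46, a difference that was not tested. The arterial and venous genes were also dimmer, with a median percentile of 53.6 in TA controls, against 72.0. The 6 lymphatic genes had 4 below 0 and 2 above, with the transmembrane protein Pdpn at 0.47, the transcription factor Prox1 at -0.45, Lyve1 at -0.15 and Reln at -0.10.

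Of the 22 further genes of angiogenesis and hypoxia, 11 were above 0 and 11 below in TA, with a median of -0.02 and 0 called. Epas1, the hypoxia-inducible factor of endothelium, was at -0.60 and Angpt2, the antagonist ligand of Tek, at -0.40. Vhl, which marks hypoxia-inducible factors for degradation, was at 0.47 and Kdm3a, a histone demethylase, at 0.33. The groups of these 4 genes, named for the largest statistics, did not overlap. Without overlap, 6 of the 22 were lower and 6 higher, where 4578 and 3248 of all 19938 genes were. Of other cell types, shlinc-MYH replicate 1 was the lowest array for 1 of 9 fibroblast genes, 0 of 10 macrophage genes, 0 of 10 fast fiber genes, 0 of 5 adipocyte genes and 2 of 4 Schwann cell genes, against 28.9% of all genes. The Schwann cell genes had a median change of -0.24. The 9 fibroblast genes had a median change of 0.05 and were highest on shlinc-MYH replicate 1 for 5 genes. The 10 macrophage genes had a median of 0.13, and their summed linear signal was 1390 to 1425 on shlinc-MYH arrays and 999 to 1877 on control arrays, in array units. The 10 fast fiber genes had a median of -0.08, with array medians of -0.03 on shlinc-MYH replicate 1 and -0.15 on replicate 2. The endothelial genes summed to 1970 and 2864 on the shlinc-MYH arrays, against 3507 and 3646 on the controls. The part of cell composition in these values was not tested.

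In the gastrocnemius of cSix1 KO mice Angpt1 was higher than in controls, and the other vessel genes differed by small amounts with no call. The 28 endothelial genes had a median of 0.06, with 21 above 0 and 7 below and a range from Flt1 at -0.17 to Aplnr at 0.40, against a median of 0.01 over all genes. The 8 mural genes had a median of 0.02. Angpt1 alone was called of the 39 at an adjusted p under 0.05, where 347 genes of the table, or 1.74%, were called and 0.908% were called higher. At an unadjusted p under 0.05, 2 of the 39 were higher and 1 lower, against 8.44% and 6.50% of all genes. The groups did not overlap for 4 genes that were higher and 2 that were lower, against 11.0% and 9.85% of all genes. These shares of the 39 lie near or below those of all genes.

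Angpt1, the ligand that activates Tek, had signals of 8.43, 8.81 and 8.47 on the cSix1 KO arrays, against 7.83, 7.69 and 7.58 on the control arrays. Every cSix1 KO array was above every control, by 0.60 at the nearest. The log2 fold change was 0.87 (SE 0.11, 95% interval 0.60 to 1.13), which is 1.83-fold, with an adjusted p of 0.0143 by limma. It stayed above 0 in all 15 alternatives, between 0.75 and 0.94, and was called in 11 of them. The call was lost without control replicate 2 (adjusted p = 0.0682), without control replicate 3 (0.0507), in a fit of all 10 arrays (0.172) and in the methods' t-test (0.178). Macrophage and fibroblast genes were also higher on average in these muscles. Few of them were called, where 0.908% of all genes were called higher. All 10 macrophage genes were above 0, with a median of 0.61, 1 called, and a summed signal of 5042 to 8002 array units on cSix1 KO arrays and 3351 to 4071 on controls. All 9 fibroblast genes were above 0, with a median of 0.33, 1 called, and sums of 19893 to 22252 on cSix1 KO arrays against 16677 to 19571 on controls. Control replicate 2 was the lowest array for 10 of the 10 macrophage genes, 6 of the 9 fibroblast genes and 17.3% of all genes. The array cSix1 KO replicate 1 was the highest for 9 of the 10 macrophage genes and for 18.1% of all genes. The part of macrophages and fibroblasts in the signal of Angpt1 was not tested.

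For the ligands of Flt1 and Kdr the values were close in both groups. Vegfa read 10.56, 10.67 and 10.68 on the cSix1 KO arrays and 10.68, 10.61 and 10.83 on the control arrays, a change of -0.07 with a 95% interval of -0.25 to 0.11. Vegfb read 10.44, 10.62 and 10.57 in cSix1 KO muscle and 10.69, 10.76 and 10.58 in controls, a change of -0.13 with an interval of -0.31 to 0.06. Both genes overlapped between groups.

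No receptor or junction gene passed the test. Tek, the receptor of Angpt1, read 9.37, 9.34 and 9.27 in cSix1 KO muscle and 9.13, 8.98 and 9.43 in controls, a change of 0.15 (SE 0.11). Flt1 read 9.49, 9.65 and 9.53 in cSix1 KO muscle and 9.85, 9.58 and 9.74 in controls, at -0.17 (SE 0.09). Kdr read 8.16, 8.03 and 8.01 in cSix1 KO muscle and 7.91, 8.09 and 8.51 in controls, at -0.10 (SE 0.14). The groups of Tek, Flt1 and Kdr overlapped, and the controls of Kdr covered a wider range than the knockouts. Pecam1 read 9.38, 9.49 and 9.58 in cSix1 KO muscle and 9.21, 9.12 and 9.63 in controls, at 0.16 (SE 0.13). Cdh5 read 10.44, 10.64 and 10.78 in cSix1 KO muscle and 10.22, 10.21 and 10.78 in controls, at 0.22 (SE 0.16). For Pecam1, Cdh5, Tek and Kdr the highest control was replicate 3. That array was the highest of the 6 for 13 of the 28 endothelial genes and for 10.7% of all genes. Control replicate 2 was the lowest for 12 of the 28 and for 17.3% of all genes. The endothelial array medians, against the control mean, were -0.01, 0.09 and 0.10 on the cSix1 KO arrays and -0.05, -0.12 and 0.18 on the controls, so the groups overlapped here as well.

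The endothelial genes with the largest statistics had small changes. Rasip1 read 8.15, 7.97 and 8.05 in cSix1 KO muscle and 7.91, 7.79 and 7.97 in controls, at 0.17 (SE 0.08). Vwf, von Willebrand factor, read 8.39, 8.34 and 8.41 in cSix1 KO muscle and 8.34, 8.07 and 8.32 in controls, at 0.14 (SE 0.09). Apln, the ligand apelin, read 7.07, 7.29 and 7.66 in cSix1 KO muscle and 6.95, 7.13 and 7.23 in controls, at 0.24 (SE 0.15). Of the 28 endothelial genes, only Rasip1 and Vwf had groups that did not overlap, each by under 0.01. Both were higher, where 11.0% of all genes were higher without overlap. The controls of Aplnr were the most spread of all 39 genes, at 7.55, 8.02 and 9.11, while its cSix1 KO arrays read 8.59, 8.64 and 8.63, so its change of 0.40 has an interval of -0.38 to 1.17. The intervals of the other 27 endothelial genes lay between -0.43 and 0.59.

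Mural genes of the gastrocnemius differed from controls by small amounts, with 3 of the 4 contractile genes below 0 and all 4 pericyte genes above it. Cnn1, calponin, read 6.70, 6.68 and 6.65 on the cSix1 KO arrays and 6.91, 6.97 and 6.79 on the control arrays, a change of -0.21 (SE 0.07, adjusted p = 0.206 by limma). Myh11 read 8.19, 8.26 and 8.20 in cSix1 KO muscle and 8.37, 8.34 and 8.36 in controls, at -0.14 (SE 0.06). Both genes were lower on every cSix1 KO array. Cspg4 read 8.12, 7.95 and 8.00 in cSix1 KO muscle and 7.85 in each control, at 0.18 (SE 0.07, adjusted p = 0.279), with every cSix1 KO array higher. Acta2 read 10.75, 10.61 and 10.44 in cSix1 KO muscle and 10.59, 10.56 and 10.56 in controls, at 0.03. Pdgfrb read 9.70, 9.64 and 9.92 in cSix1 KO muscle and 9.57, 9.45 and 10.05 in controls, and Rgs5 read 10.64, 10.74 and 10.93 in cSix1 KO muscle and 10.67, 10.59 and 11.03 in controls. Notch3 was at 0.13 and Tagln at -0.01. The changes of Pdgfrb at 0.07 and Rgs5 at 0.01 were within the spread of their controls.

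**Figure D3:**
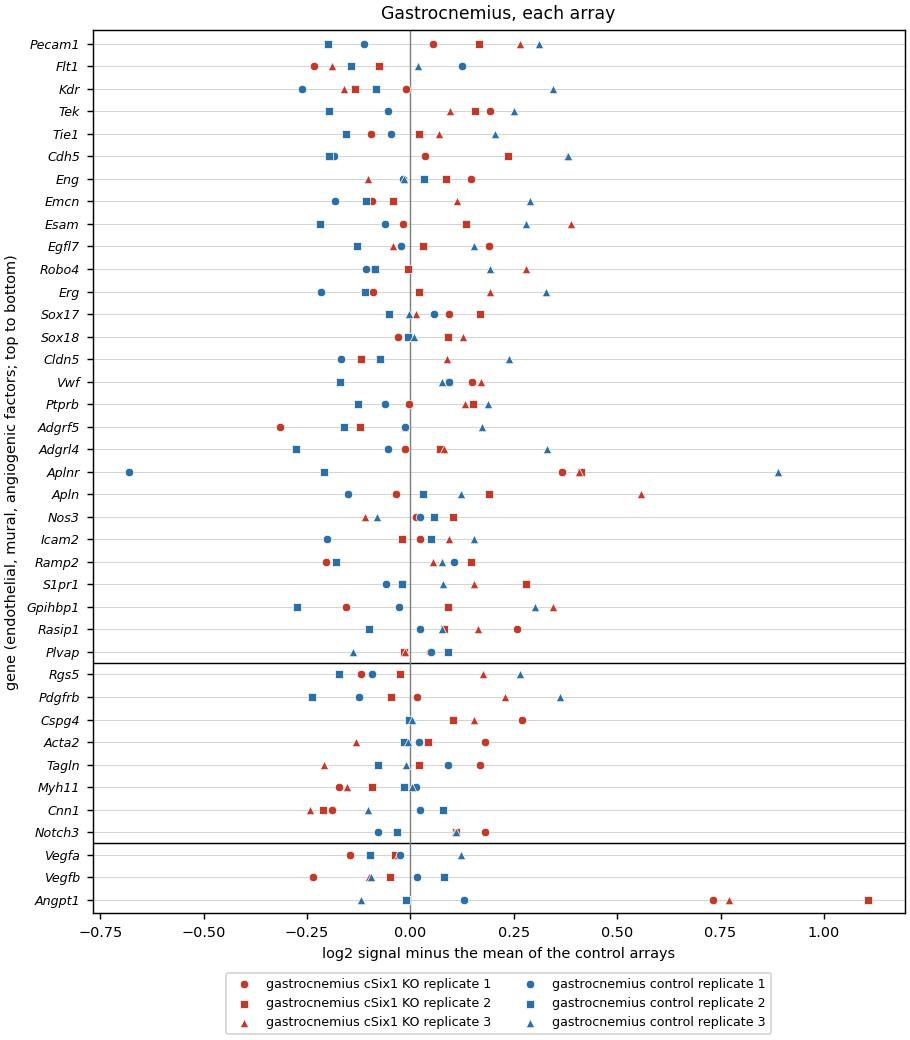
Log2 signal of the 39 genes on each gastrocnemius array minus the mean of the 3 control arrays, with cSix1 KO in red, control in blue, and a marker for each replicate. Angpt1 at the bottom is the gene whose red points, at 0.73, 1.11 and 0.77, stand clear of the blue ones, and the controls of Aplnr reach from -0.68 to 0.89.

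Among further vessel genes of the gastrocnemius, 2 were called, 1 of 22 genes of angiogenesis and hypoxia and 1 of 17 mural genes. Of 29 endothelial, 16 arterial and venous and 6 lymphatic genes, 0 were called, where 1.74% of all genes were. Vegfd, a ligand of the VEGF family that acts on lymphatic and blood vessels, read 8.41, 8.60 and 8.52 on the cSix1 KO arrays, against 8.12, 8.11 and 8.11 on the control arrays. It rose by 0.40 (SE 0.07, adjusted p = 0.038 by limma), and the call held in 5 of 15 alternatives. Abcc9, a subunit of potassium channels of pericytes and also of muscle fibers, read 11.003, 10.97 and 11.21 in cSix1 KO muscle and 11.45, 11.48 and 11.50 in controls. It fell by 0.42 (SE 0.08, adjusted p = 0.0486), and the call held in 6 of 15 alternatives. Both calls held in fewer alternatives than that of Angpt1.

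Of the other genes on these lists none was called. Among 22 genes of angiogenesis and hypoxia, 16 were above 0 with a median of 0.13, among them Hif1a, the hypoxia-inducible factor, at 0.34 (adjusted p = 0.0768), Kdm3a at 0.32 and Hmox1, heme oxygenase, at 0.53. Among 6 lymphatic genes Prox1 was at 0.66 (adjusted p = 0.0666 by limma) and Pdpn at 0.55. Both had every cSix1 KO array above every control, as did 11.0% of all genes. Reln was at -0.10 and Mmrn1 at -0.19, and Prox1 is expressed in muscle fibers too. Among 16 arterial and venous genes Hey1, a Notch target, was at 0.26, Nrp2, a co-receptor of VEGF, at 0.39, Gja4, an arterial connexin, at -0.18 and Ackr1, a venous chemokine receptor, at 0.41. Among 29 further endothelial genes, with a median of 0.08, Mcam was at 0.28, Cd34 at 0.23, Cd93 at 0.45 and Stab1, a scavenger receptor, at 0.33. Cd34 and Stab1 are also found on fibroblasts and macrophages. Among 17 further mural genes, with a median of -0.03, Myocd, the coactivator of smooth muscle genes, was at -0.32, Steap4 at 0.33 and Cald1 at 0.15.

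**Figure D4:**
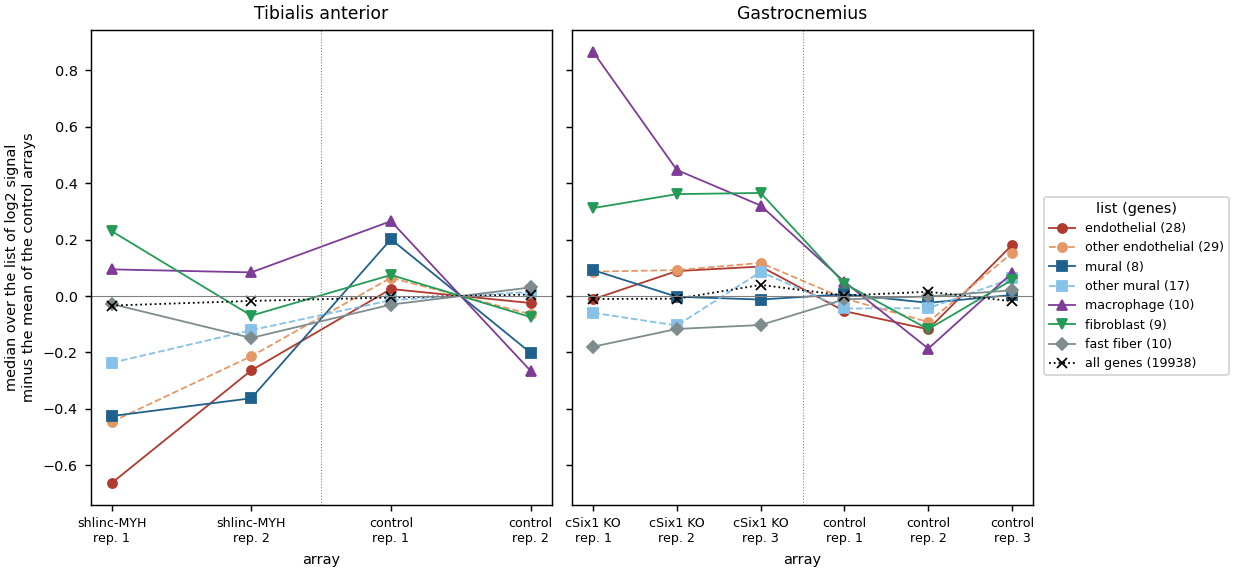
Median over each gene list of the log2 signal minus the mean of the control arrays of the tissue, 1 point per array, with TA left and gastrocnemius right. Lines join the points of a list and give no order of replicates. The endothelial list is at -0.66 and -0.26 on the shlinc-MYH arrays, and the macrophage list at 0.87, 0.45 and 0.32 on the cSix1 KO arrays.

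The 2 comparisons were set against each other in 1 fit over all 10 arrays, where tissue and perturbation differ together. Sampling differs with them, as electroporation and the dissection of fibers are described for TA only. The array medians of the tissues also differ, as given above. The change in TA minus that in gastrocnemius was below 0 for 28 of 28 endothelial genes, with a median of -0.53, and for 7 of 8 mural genes, where the median over all genes was -0.03. It was also below 0 for 10 of 10 macrophage genes (median -0.52) and 8 of 9 fibroblast genes (-0.34). The same held for 5 of 5 adipocyte genes (-0.40) and 4 of 4 Schwann cell genes (-0.30). Of the 10 fast fiber genes 4 were below 0, with a median of 0.04. The direction was thus not particular to vessel genes. Pecam1 differed by -0.996 (SE 0.25, adjusted p = 0.18 by limma), Ptprb by -0.95 (SE 0.27) and Cdh5 by -0.87 (SE 0.33). Of the 39 genes, 0 were called, and 29 genes of the table, 0.145%, were. At an unadjusted p under 0.05, 19 of the 39 were below 0, where 7.10% of all genes were. Angpt1 differed by -0.85, with an interval of -1.75 to 0.04, so a call in gastrocnemius alone does not show that it responded differently in TA. Without shlinc-MYH replicate 2, Angpt1 (-1.50), Ptprb (-1.35) and S1pr1 (-1.11) were called, and without TA control replicate 2, Acta2 (-1.29) was. The shared direction is one over genes, which are not independent replicates, and none of the 39 was called with all arrays.

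**Figure D5:**
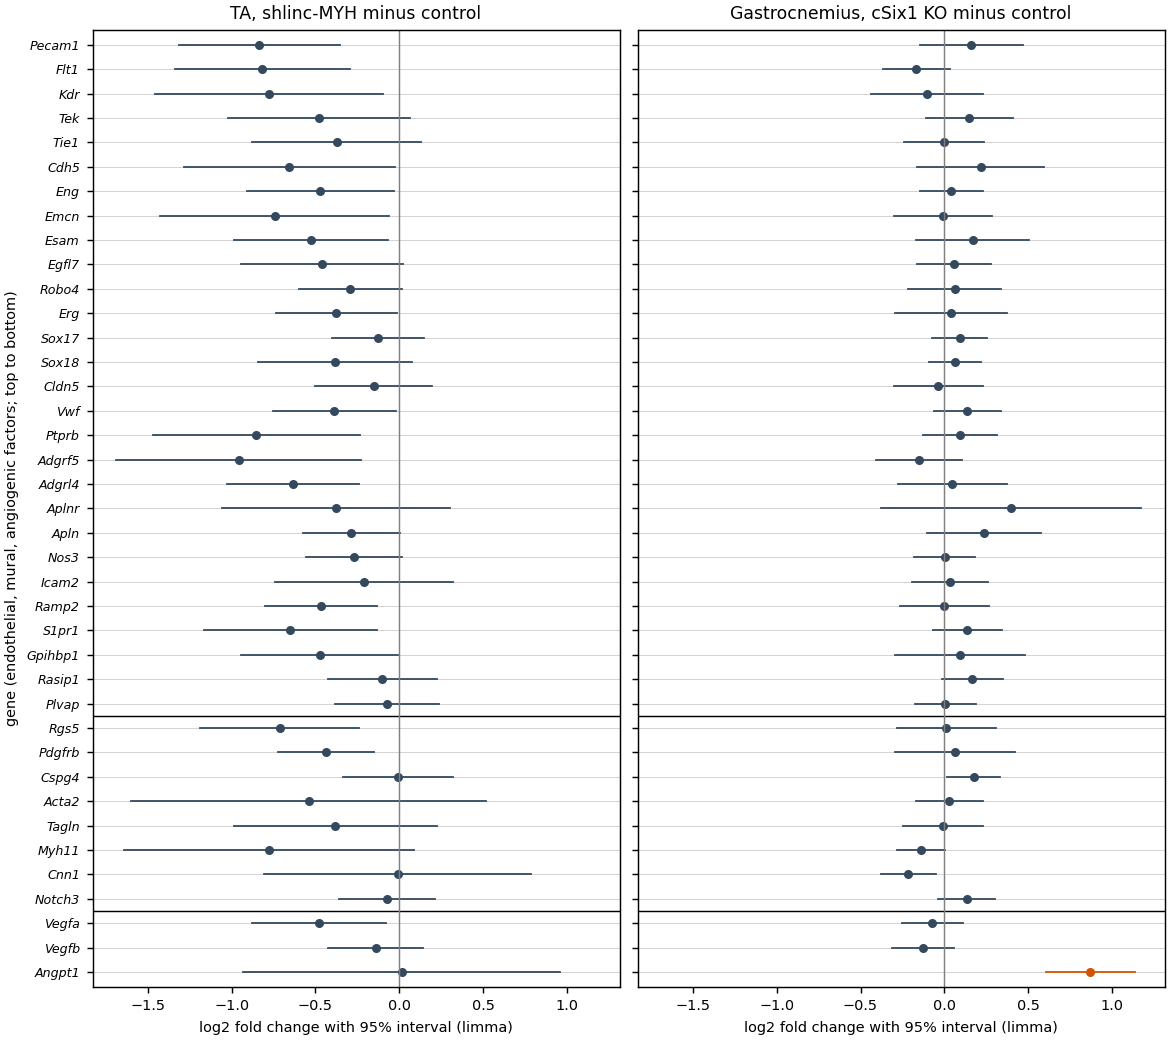
Log2 fold change of the 39 genes with its 95% interval from limma, shlinc-MYH minus control in TA (left) and cSix1 KO minus control in gastrocnemius (right), on 1 scale. Every endothelial point of TA is left of 0 with a wide interval, those of the gastrocnemius lie around 0, and Angpt1 in orange at 0.87 is the 1 gene with an adjusted p under 0.05.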

How the data were processed

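The authors' deposited values are log2 signals after RMA, 1 per probe set and array, for 35556 probe sets with 0 missing. The processing notes name RMA and Partek without versions, while a joint or separate RMA run of the tissues is not given in the sources used here. Gene names came from the annotation of the platform (21789 with 1 symbol, 1621 with several, 12146 with none), and those with several were left out. Where a gene had several probe sets (999 genes), the brightest over all arrays stood for it, which gave 19938 genes. No pair of arrays held identical values.

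limma 3.58.1 (lmFit and eBayes, run in R 4.3.3) was used on the arrays of 1 tissue at a time, with the Benjamini-Hochberg method applied across every gene and calls made under 0.05. The contrast of the comparisons came from 1 fit of 4 groups. The script was tested on simulated data. Python 3.11.15, pandas 2.3.3 and matplotlib 3.10.9 were used for tables and plots. Arrays give no read depth, and their number limits the precision. The alternatives were quantile normalization, centring on the array median, leaving out dim genes, the mean of probe sets, a joint fit of both tissues, a robust prior with an intensity trend, weighted arrays, a replicate block, the methods' t-test and leaving out each array.

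The members and gene lists were chosen with earlier results of these data known, and the grouping of members by role and the promoter motifs after their values were seen. Array values are given for called members, the 4 endothelial and 3 mural genes with the largest moderated statistic per comparison, 9 defining genes and the angiogenic factors. From the 5 further vessel lists up to 4 genes per comparison are named by the same statistic. The lists held 9 genes without a probe set of their own, which were not analysed here. linc-MYH had no probe set of its own either, so the knockdown was not checked, and the level of the gene deleted in the knockout is not reported here.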

Additional observations from a re-analysis of the deposited data

How the results depend on the processing

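Of the 39 genes, 0 were called in TA in every alternative, while the number over all genes, 3, was 10 with centring, 131 with all 10 arrays in 1 fit, 5 with the replicate block, 0 in the methods' t-test, and 0 without any 1 array. In gastrocnemius the 347 genes called were 543 with the intensity trend and robust prior, 989 with array weights, 186 with the replicate block, 4 in the methods' t-test, and 51 to 560 when an array was left out. Of the 39, 1 was called in gastrocnemius, 0 with all 10 arrays in 1 fit, 0 in the methods' t-test, and 0 to 1 when an array was left out. For the difference between comparisons 0 became 0 to 3 when an array was left out. The cause of these shifts was not tested.

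The TA endothelial median stayed below 0 in all alternatives, between -0.66 and -0.26. The TA mural median was -0.60 to -0.0665 when an array was left out. The gastrocnemius mural median was -0.027 with centring and -0.0501 to 0.0848 when an array was left out. Among the named genes some changed sign. In TA, Cspg4 was at 0.0082 after quantile normalization and at 0.0246 after centring. Over the arrays left out, Plvap lay between -0.17 and 0.0239, Cspg4 between -0.14 and 0.13, Acta2 between -1.26 and 0.18, Angpt1 between -0.63 and 0.66, Lyve1 between -0.35 and 0.0473 and Reln between -0.23 and 0.0264. In gastrocnemius, Rgs5 was at -0.0371 after centring and -0.0058 with array weights, and Acta2 at -0.0168 after centring. Over the arrays left out, Kdr lay between -0.23 and 0.0702, Rgs5 between -0.0762 and 0.14, Pdgfrb between -0.0532 and 0.25, Acta2 between -0.045 and 0.11 and Mmrn1 between -0.34 and 0.0728.

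Same-numbered arrays deviated from their group means with a correlation of 0.185 over genes in TA and of 0.216, -0.137 and 0.084 in gastrocnemius. In TA the control was in the other leg of the mouse by the methods, but no source says that arrays of 1 number share a mouse, so whether the numbers pair the TA arrays is not known. In gastrocnemius the groups differ in genotype and so cannot share a mouse, and no source says that the numbers pair the arrays in another way. Under the replicate block Angpt1 kept its call in gastrocnemius (adjusted p = 0.0374). The precision is limited by the number of arrays, 2 a group in TA and 3 in gastrocnemius.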

Other observations

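Lists of cell types that lie close to vessels were read for comparison. The 4 measured Schwann cell genes were all below 0 in TA, with a median of -0.24, and all 4 were highest on control replicate 1, the array on which the contractile smooth muscle genes were high as well. In gastrocnemius 3 of the 4 were above 0, with a median of 0.08. The 5 adipocyte genes had a median of -0.09 in TA and 0.31 in gastrocnemius, where all 5 were highest on cSix1 KO replicate 2 and lowest on control replicate 3, the array with the highest endothelial median. The 10 fast fiber genes were all below 0 in gastrocnemius, with a median of -0.13.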
